A study of Mus musculus with 4 samples.

Results

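The 45 genes described here encode the scaffolds that hold the sarcomere together and the proteins that build it: titin and nebulin (3 genes), the Z-disc core (14), the M-band (4), myosin-binding proteins (3), proteins that set thin filament length together with the tropomyosins (8), assembly scaffolds (3), chaperones and Kelch stabilizers (6), and stretch-response proteins with the MuRF ubiquitin ligases (4). They were listed by name and function, with earlier results of these data known, out of 32285 gene rows, and all 45 are accounted for below. Described are the level of each gene, the order in which the genes appeared, and how much they varied from cell to cell along differentiation.

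The sarcomere is the contractile unit of striated muscle. Actin thin filaments are anchored end to end at the Z-disc by alpha-actinin, myosin thick filaments are crosslinked at the M-band, and titin spans from the Z-disc to the M-band. In differentiating muscle cells the scaffold is laid down as small precursor bodies that align into Z-discs, with help from chaperones that fold myosin and from Kelch proteins that stabilize nebulin and leiomodin. Myogenin (Myog) is the transcription factor that marks the entry into differentiation, and Acta1 (skeletal alpha-actin) and Myh3 (embryonic myosin heavy chain) are genes of the contractile filaments themselves.

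The cells were mouse muscle stem cells of genotype MyoD-KI, a knock-in in which the red fluorescent protein tdTomato reports expression of the muscle lineage factor MyoD. They came from skeletal muscle, were cultured for 5 days in growth medium with serum, and were sorted for a high MyoD-tdTomato signal before droplet-based single-cell RNA sequencing (10x Genomics 3-prime chemistry). There was 1 group, labelled as 4 replicates, and every cell carried the knock-in and had passed the same sort, so cells low in the reporter were not analysed here. The number, age and sex of the animals are not given in the sources used here.

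The 4 files held 62627341 to 68898900 unique molecular identifiers (UMIs, counted molecules), and any pair had 99.9% of barcodes in common. In 98.1% to 98.9% of 1000 cells examined, the profile under the same barcode in a second file was closer than under any of 100 other barcodes. The files count as repeated measurements of 1 set of cells, n = 1. Ranges over the files therefore show how well a value repeats on the same cells, intervals cover counting error only, and no p-value is given. About 10000 cells were processed per the labels, 5985 barcodes were listed in at least 1 file and 5944 in all, and 5481 were kept, with a median of 11049 UMIs per file. Levels are in CPM, UMIs per 1000000 UMIs. Over kept cells the 3 endothelial, 3 immune and 3 cardiac markers were each under 1 CPM. Col3a1 of the fibroblast list stood at 110 CPM, while Pdgfra, Dcn and Lum were under 1 CPM. In the smooth muscle or pericyte list, Rgs5 and Pdgfrb stood at 5.25 and 4.59 CPM and Des at 1165 CPM. Myh11 and Cnn1 of that list were under 1 CPM. The 3 Schwann or glial markers summed to 1.47 CPM and the 5 muscle stem or progenitor markers to 197 CPM. The 9 markers of differentiating myocytes summed to 7820 CPM, which includes Myog, Acta1 and Myh3, the genes that order the cells below.

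Kept cells were placed in 5 ordered stages by the level of Myog and by the sum of Acta1 and Myh3, here called the late sum. Stage 1 was Myog under 400 CPM (2572 cells) and stage 2 was Myog from 400 to 1500 CPM (579 cells). Stages 3, 4 and 5 had Myog at 1500 CPM or more, with a late sum under 1000 (561 cells), from 1000 to 5000 (808 cells) and of at least 5000 CPM (961 cells). The stages are bins of expression and not points in time. The same cell fell in the same stage in 88.9% to 90.2% of cases between files, and 77 to 148 cells lay within 10% of each cut. Stage 2 held 111 cells with a late sum of 1000 CPM or more and stage 1 held 19. Levels without these cells are given below for some genes only, and other genes differed as well. In stage 2, Ttn was at 2523 CPM with them and 1708 CPM without, and Actn2 at 89.2 and 40.6 CPM. The share of cells with a Mki67 or Top2a UMI, both genes of dividing cells, was 61.0% in stage 1, 38.7% in stage 3, 24.0% in stage 4 and 7.34% in stage 5 at 5000 UMIs per cell. The summed cardiac markers went from 0.083 CPM in stage 1 to 1.55 CPM in stage 5, where Myh6 made up the whole sum, and the summed fibroblast markers from 161 to 32.5 CPM. The part of the cardiac and fibroblast markers in the results below was not tested, and results without the cells with a Mki67 or Top2a UMI are given below.

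The upstream sequences of 5 genes are shown first, because they span the order of appearance found below: Mybpc1 reached 50% of its highest level in stage 2, Ttn and Klhl41 in stage 4, and Myoz2 and Csrp3 in stage 5. Each is the 250 bases before the RefSeq transcription start on GRCm38.p6, read 5′ to 3′ on the gene's strand, with matches to the E-box CANNTG (the letters bound by MyoD and myogenin) and to the MEF2 consensus in capitals; none of the matches shown overlap. Csrp3 has 2 starts in the table and the first is shown. The windows lie at chr10:88605153-88605402 (minus strand, Mybpc1), chr2:76982548-76982797 (minus, Ttn), chr2:69669870-69670119 (plus, Klhl41), chr3:123034988-123035237 (minus, Myoz2) and chr7:48848052-48848301 (minus, Csrp3).
Mybpc1: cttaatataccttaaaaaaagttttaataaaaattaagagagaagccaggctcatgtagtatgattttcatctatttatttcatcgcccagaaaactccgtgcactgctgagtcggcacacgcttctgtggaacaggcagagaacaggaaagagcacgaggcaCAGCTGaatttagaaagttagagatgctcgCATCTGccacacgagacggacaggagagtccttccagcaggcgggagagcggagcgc
Ttn: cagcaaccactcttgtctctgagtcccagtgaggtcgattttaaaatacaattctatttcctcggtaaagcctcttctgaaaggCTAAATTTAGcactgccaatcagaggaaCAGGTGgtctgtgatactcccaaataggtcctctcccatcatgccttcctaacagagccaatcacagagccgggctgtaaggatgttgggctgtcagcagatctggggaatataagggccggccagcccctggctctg
Klhl41: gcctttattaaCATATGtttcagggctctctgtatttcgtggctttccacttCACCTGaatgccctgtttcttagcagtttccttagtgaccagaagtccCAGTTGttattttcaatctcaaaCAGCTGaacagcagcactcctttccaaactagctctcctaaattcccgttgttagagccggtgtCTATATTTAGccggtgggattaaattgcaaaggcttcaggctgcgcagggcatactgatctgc
Myoz2: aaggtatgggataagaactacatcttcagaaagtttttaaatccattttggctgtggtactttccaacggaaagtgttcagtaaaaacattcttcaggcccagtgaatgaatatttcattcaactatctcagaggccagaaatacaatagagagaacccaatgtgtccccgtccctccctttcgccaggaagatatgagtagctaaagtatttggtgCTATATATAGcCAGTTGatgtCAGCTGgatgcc
Csrp3: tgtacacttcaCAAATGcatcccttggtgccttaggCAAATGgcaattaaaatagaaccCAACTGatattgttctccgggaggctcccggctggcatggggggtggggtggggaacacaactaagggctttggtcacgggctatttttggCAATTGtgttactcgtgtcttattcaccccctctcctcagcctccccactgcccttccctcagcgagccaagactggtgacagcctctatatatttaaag
Ttn held 1 E-box and 1 MEF2 match, Klhl41 4 and 1, Myoz2 2 and 1, Mybpc1 2 and 0, and Csrp3 4 and 0. Of the 45 genes, 34 were found in the RefSeq table, with 43 windows. An E-box on either strand was present in 74.4% of these windows and in 66.2% of all 32851 windows of the same length. The MEF2 consensus was present in 6 windows (14.0%, of Ttn, Myoz2, Myom3, Klhl41 and 2 starts of Synpo2l) against 2.92% of all windows, and the CArG consensus of serum response factor in 4 (9.30%, of Nebl, Myom1 and 2 overlapping starts of Ldb3) against 1.47%. TATAAA was present in 11.6% and 12.4%. These matches are letters in a window and not binding sites.

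Across the whole set, 37 of the 42 genes with enough counts were at least 2-fold higher in cells with Myog at 1500 CPM or more (2330 cells) than in cells under 400 CPM (2572 cells), and 2 were at least 2-fold lower. Here and below, higher and lower mean a difference of at least 2-fold with at least 50 UMIs per file over the groups compared. The 50 UMIs are summed over both groups, so a gene can pass through the group where it is high. Among all 12915 genes with such counts, 8.74% were higher and 21.9% lower. The median log2 ratio of the 42 genes was 3.16, against -0.31 for all genes. The 2 lower genes were Nebl (nebulette, a short relative of nebulin) and Tpm3 (a tropomyosin), and the 3 under 2-fold were Tpm1, Pdlim5 and Hspb7. Myoz3, Mybpc2 and Tmod4 did not reach the minimum, with 3.5, 2 and 13.75 UMIs per file over all kept cells.

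Within cells that were already high in Myog, 32 of 41 genes were higher at a late sum of at least 5000 CPM (961 cells) than under 1000 CPM (561 cells), and 0 were lower. Of all 10429 genes, 6.94% were higher and 15.5% lower, and the medians were 1.80 for the 41 genes and -0.35 for all. Scaling by the median gene in place of UMI totals raised every ratio by the size of those medians, 0.31 in the Myog comparison and 0.35 in this one. It made 40 and 36 genes higher, left 2 and 0 lower, and moved the share of higher calls among all called genes from 28.5% to 43.0% and from 30.9% to 52.1%. Log2 ratios below are on the scale of UMI totals and can be read against those medians. The late comparison does not hold Myog fixed: Myog stood at 2925 CPM in stage 3 and at 4314.5 CPM in stage 5. Some genes passed the count minimum there only through stage 5. Among them, Myot, Myoz2 and Ankrd2 had 2.25, 5 and 6.5 UMIs per file in stage 3.

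**Figure D1:**
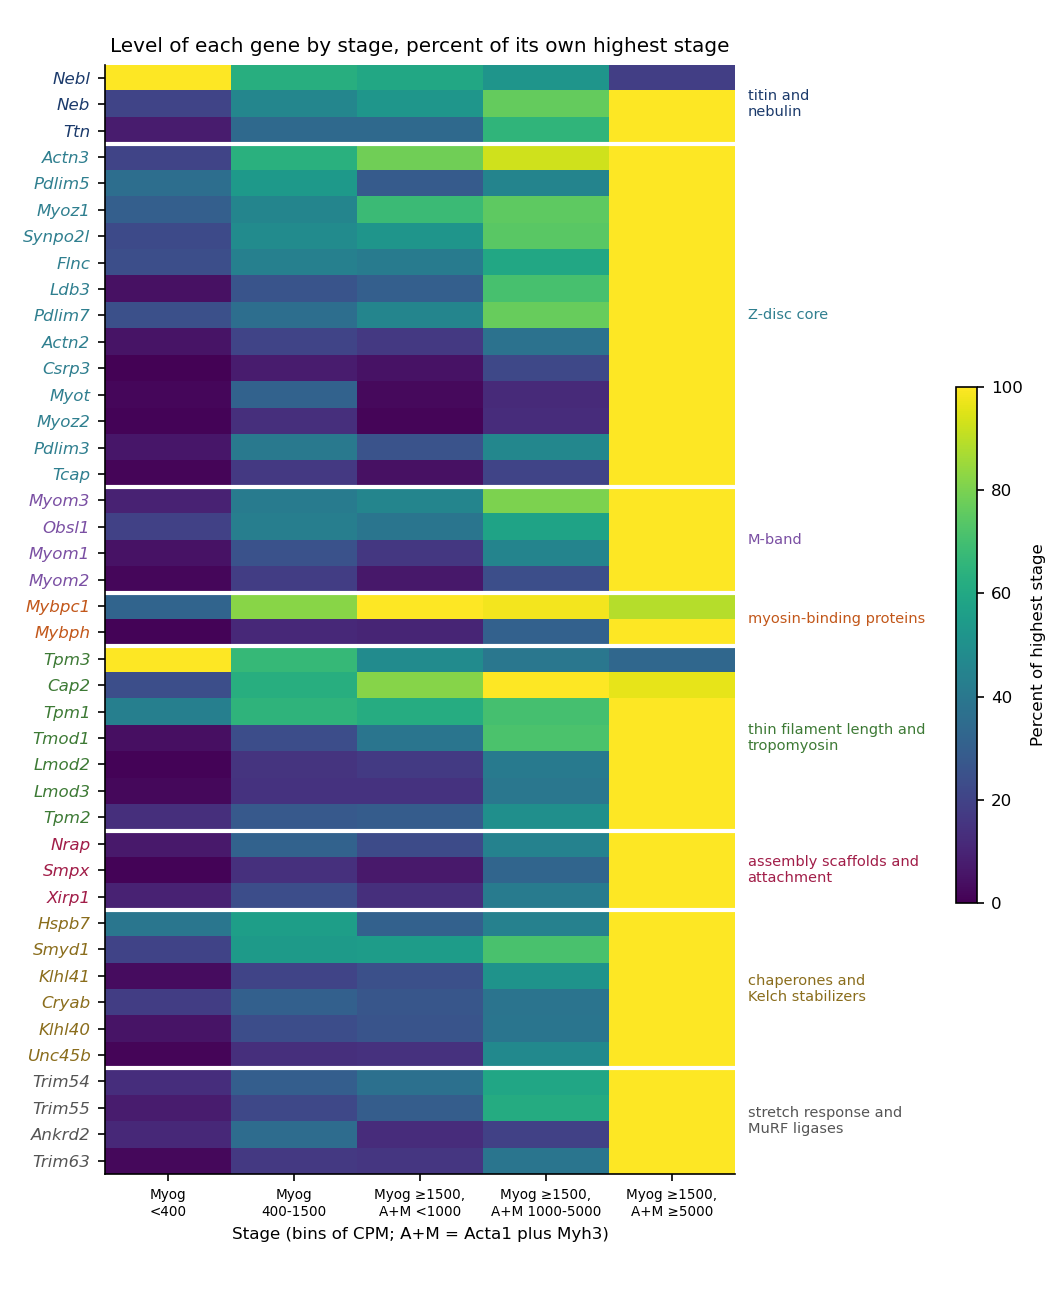
Level of 42 genes in the 5 stages (columns), each as a percentage of its own highest stage (colour), with genes grouped by function. Most rows are brightest in the last column, Nebl and Tpm3 are brightest in the first, and Mybpc1 and Cap2 reach their highest level in stages 3 and 4.

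Ttn and Neb were both higher with Myog and were already counted in stage 1. Ttn encodes the giant elastic protein that spans the sarcomere from Z-disc to M-band (chr2:76703980-76982547 in the GENCODE M21 annotation of GRCm38, minus strand). Its level in stage 1 was 559, 554, 561 and 562 CPM in replicates 1 to 4, and in stage 5 it was 7452, 7425, 7392 and 7421 CPM. The files of the 2 stages did not overlap. The log2 ratio was 3.30 with Myog (95% counting interval 3.28 to 3.32) and 1.56 with the late sum (1.53 to 1.58). Neb encodes nebulin, the ruler that runs along the thin filament, and stood at 478, 482, 483 and 482 CPM in stage 1 and at 2356, 2354, 2355 and 2344 CPM in stage 5. Its log2 ratio was 2.001 with Myog and 0.93, under 2-fold, with the late sum. In the 361 cells with no Myog UMI in any file Neb was at 501 CPM and Ttn at 365 CPM, 4.91% of its stage 5 level.

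Nebl went the other way. It stood at 4.39 CPM in stage 1 (3.68 to 5.22) and at 0.81 CPM in stage 5 (0.38 to 1.46), and its log2 ratio with Myog was -1.36 (-1.88 to -0.88). These are low levels, 133 UMIs per file in stage 1, and in the late comparison it was under the count minimum. Nebl has 4 starts in the RefSeq table, and counts per gene do not tell its transcripts apart.

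**Figure D2:**
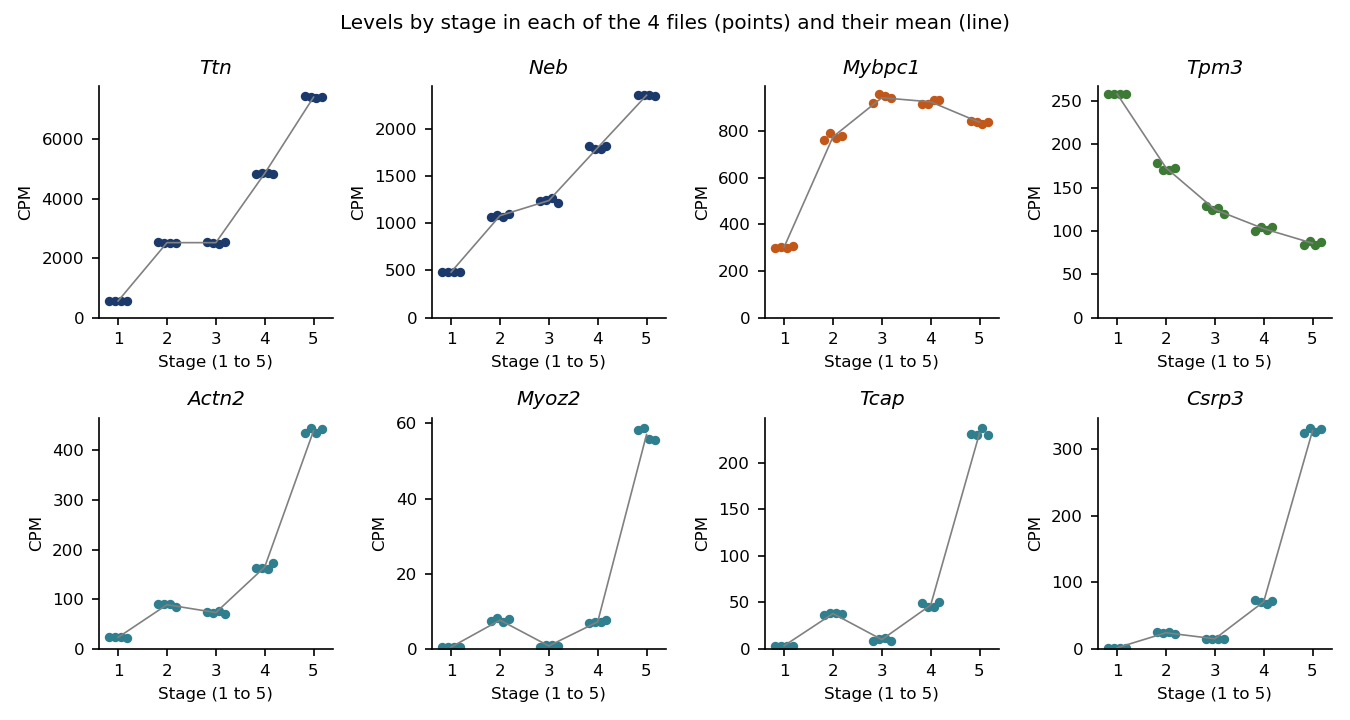
Levels in CPM (vertical axes, each from 0) of 8 genes in stages 1 to 5 (horizontal axes), with 1 point per file and a line through their mean. Neb climbs from stage 1 to 5, and Ttn does so except between stages 2 and 3, both at 2523 CPM. Mybpc1 peaks in stage 3 and Tpm3 falls throughout. Actn2, Myoz2, Tcap and Csrp3 climb most between stages 4 and 5, with a higher level in stage 2 than in stage 3. Without the stage 2 cells at a late sum of 1000 CPM or more, these 4 genes were lower in stage 2 than in stage 3 (Actn2 40.6 and 73.4 CPM). So was Ttn, at 1708 and 2523 CPM.

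The 14 Z-disc genes held both early and late members. With Myog, 12 of 13 measured genes were higher (median log2 ratio 3.48), and with the late sum 10 of 13 were (median 1.80). Csrp3 encodes the muscle LIM protein. Its level was 1.91, 2.08, 1.97 and 1.80 CPM in stage 1 and 323, 330, 325 and 330 CPM in stage 5, and its log2 ratio with Myog was 6.48 (6.10 to 6.87). Myoz2 (myozenin, also called calsarcin) binds alpha-actinin and calcineurin. It stood at 0.66, 0.98, 1.00 and 0.71 CPM in stage 3 and at 58.2, 58.7, 55.9 and 55.5 CPM in stage 5, a log2 ratio with the late sum of 6.09 (4.86 to 7.72) that rests on 5 UMIs per file in stage 3. Its ratio with Myog was 5.73, and 5.65 to 6.66 when a file was left out. Tcap, or telethonin, which caps titin at the Z-disc, was at 9.17, 10.9, 11.5 and 9.12 CPM in stage 3 and at 231, 230, 237 and 229 CPM in stage 5, a ratio of 4.51 (4.14 to 4.89). In stage 4, Myoz2, Tcap and Csrp3 were at 7.25, 47.2 and 70.9 CPM. Their stage 2 levels of 7.70, 38.1 and 24.4 CPM were 0.73, 5.14 and 2.85 CPM without the 111 cells with a high late sum.

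Myot (myotilin, which crosslinks actin at the Z-disc) rose late as well, at a lower level, with 0.29 CPM in stage 1 and 16.7 CPM in stage 5 (14.5 to 19.1). Without the stage 1 cells at a late sum of 1000 CPM or more, its stage 1 level was 0.10 CPM. Its ratio with the late sum was 5.41 with a wide interval of 3.76 to 8.69, and it ran from 5.06 to 6.63 when a file was left out. In replicate 1 no Myot UMI was counted in stage 3. Actn2, the alpha-actinin that is the main crosslinker of the Z-disc, rose from 23.6 CPM in stage 1 to 165 in stage 4 and 439 in stage 5, with ratios of 3.51 and 2.58.

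Actn3, the alpha-actinin of fast fibres, was earlier. It measured 44.1, 44.0, 45.01 and 44.4 CPM in stage 1, 172, 163, 172 and 176 CPM in stage 3, and 218, 218, 219 and 219 CPM in stage 5. Most of its range was covered among cells with a late sum under 1000 CPM. Its log2 ratio with Myog among these cells was 1.98, and between stages 5 and 3 it was 0.36 (0.25 to 0.46). The late sum also rose below that cut: Acta1 was at 79.7 CPM in the stage 1 cells under it and at 300 CPM in stage 3. Actn2 gave 1.71 and 2.58 in the same comparisons. The LIM and PDZ protein Ldb3 (ZASP), which binds alpha-actinin, gave 2.83 and 1.73, and Pdlim3 gave 2.24 and 1.96.

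Pdlim5 measured -0.31 (log2) with Myog at a low late sum and 1.80 (1.57 to 2.02) with the late sum, and the filamin Flnc, an actin crosslinker, 0.79 and 1.27. Pdlim7 gave 0.90 and 1.14. Synpo2l, a relative of the Z-disc protein myopodin, gave 1.23 and 0.94. Myoz1, at 0.95 CPM in stage 1 and 3.12 CPM in stage 5, was near the limit of counting, with a late ratio of 0.55 (-0.43 to 1.54).

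**Figure D3:**
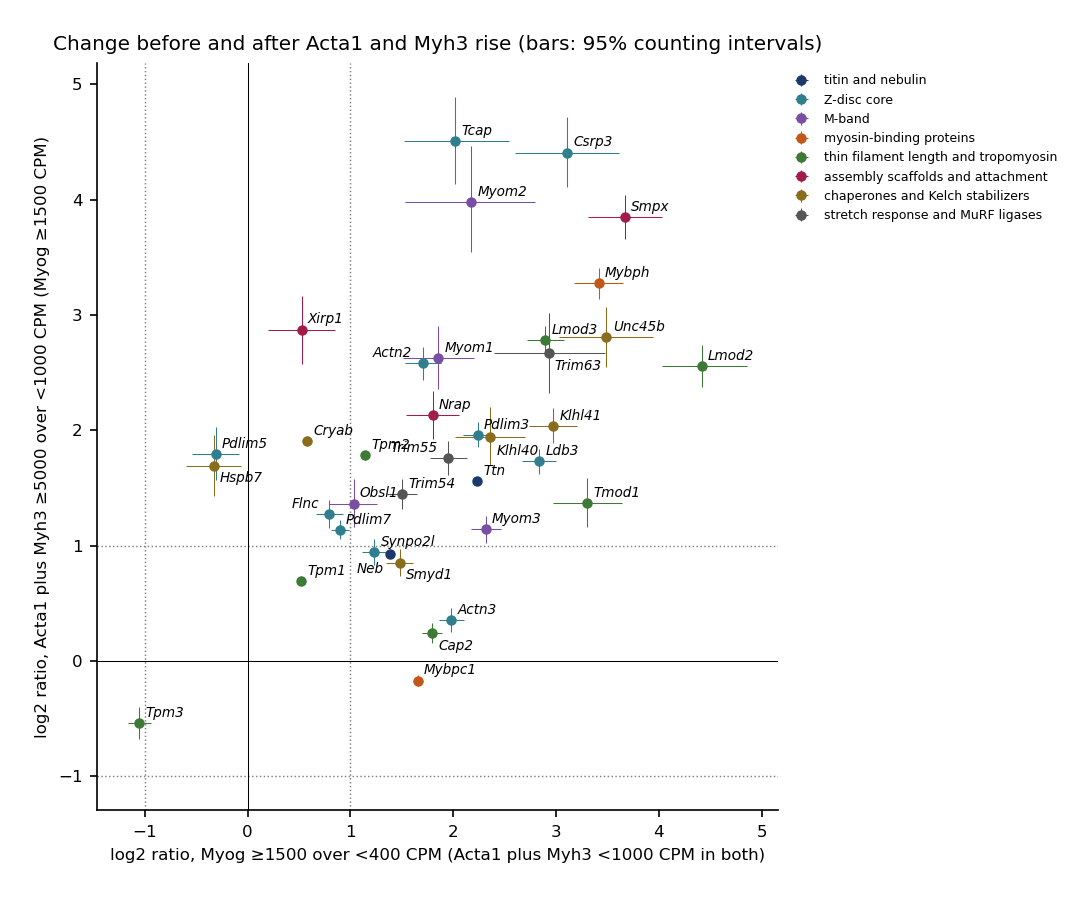
Log2 ratio with Myog among cells with a late sum under 1000 CPM (horizontal axis) against the log2 ratio with the late sum among cells with Myog at 1500 CPM or more (vertical axis), 1 point per gene coloured by group, with 95% counting intervals and dotted lines at 2-fold. Tcap, Csrp3 and Myom2 lie at the top, Mybpc1, Cap2 and Actn3 lie low on the right, Pdlim5 and Hspb7 lie left of 0, and Tpm3 is the point below and left of 0. The cells of stage 3 enter both axes.

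All 4 M-band genes were higher in both comparisons, with median log2 ratios of 3.42 and 1.996. The myomesins crosslink thick filaments at the M-band, and the 3 genes did not share a course. Myom3 measured 26.1 CPM in stage 1, 126 in stage 3 and 277 in stage 5. Myom2 measured 1.84, 7.08 and 112 CPM in the same stages, and Myom1 6.12, 20.6 and 127 CPM. The late ratio was 1.14 (1.02 to 1.25) for Myom3, 2.63 (2.36 to 2.90) for Myom1 and 3.98 (3.55 to 4.47) for Myom2, and the intervals of the 3 genes do not overlap. Obsl1, which links titin and myomesin, had ratios of 1.92 and 1.36. Without cells with a Mki67 or Top2a UMI the late ratio of Myom3 was 0.82, under 2-fold.

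The 2 measured myosin-binding proteins took different courses. Mybpc1, the slow isoform of myosin-binding protein C, measured 299, 302, 299 and 308 CPM in stage 1, 920, 960, 951 and 941 CPM in stage 3, and 842, 839, 829 and 838 CPM in stage 5. It was highest in stage 3, with a ratio of 1.66 with Myog at a low late sum and of -0.17 (-0.22 to -0.12) with the late sum. Relative to the median gene the latter became 0.18, so its direction after stage 3 depends on the scaling. Over all cells its ratio with Myog was 1.56, and without cells with a Mki67 or Top2a UMI it was 0.95, under 2-fold. Mybph, a smaller relative, measured 8.69 CPM in stage 1, 78.0 in stage 3 and 755 in stage 5, with a late ratio of 3.27 (3.14 to 3.41). Mybpc2, the fast isoform, had 2 UMIs per file over all kept cells.

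Among the genes of thin filament length, the leiomodins reached most of their level later than Tmod1. Lmod2 and Lmod3 start and lengthen actin filaments, and Tmod1 (tropomodulin) caps their pointed ends. Lmod2 rose from 2.41 CPM in stage 1 to 44.6 in stage 3 and 263 in stage 5, and its ratio of 6.09 with Myog was the largest of this group. At a late sum under 1000 CPM in both cell groups its ratio with Myog was 4.42. Lmod3 rose from 15.4 CPM in stage 1 to 711 in stage 5, and Tmod1 from 4.11 to 97.1, with late ratios of 2.78 and 1.37. Cap2, a cyclase-associated protein that turns over actin, was highest in stage 4 at 306 CPM and had a late ratio of only 0.24 (0.15 to 0.33).

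The 3 tropomyosins, which lie along the thin filament, differed in direction and size. Tpm2 rose from 503 CPM in stage 1 to 3741 CPM in stage 5, with ratios of 2.34 and 1.78. Tpm1 stood at 744 CPM in stage 1 and 1718 in stage 5, with ratios of 0.92 and 0.69 that were both under 2-fold and that passed it relative to the median gene (1.23 and 1.04). Tpm3 measured 258, 258, 257 and 258 CPM in stage 1 and 83.8, 88.6, 83.9 and 86.7 CPM in stage 5. All files of stage 5 were below those of stages 1 and 4, and its ratio with Myog was -1.37 (-1.43 to -1.31). Tpm1 and Tpm3 each also make tropomyosins of non-muscle cells, and counts at the 3-prime end of the gene pool these forms. Reads of Tpm3 may also be shared with Tpm3-rs7, a related copy counted as a gene of its own. Within every stage Tpm3 was higher in cells with a Mki67 or Top2a UMI than in the others, by 0.23 to 0.53 (log2). Without these cells its ratio with Myog was -1.15.

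All 3 scaffold genes were higher in both comparisons, with medians of 3.23 and 2.87. Smpx, a small muscle protein of the costamere, measured 4.78, 4.52, 4.84 and 4.44 CPM in stage 1 and 569, 574, 560 and 566 CPM in stage 5, with ratios of 6.13 and 3.85. Nrap, a nebulin-related anchor of new actin filaments, rose from 10.5 to 152 CPM, with ratios of 3.23 and 2.13. Xirp1 (Xin), which binds actin at cell attachments, had a ratio of 0.53 with Myog at a low late sum and of 2.87 with the late sum. Replicate 4 gave 3.23 for the latter, above the other files, on 13.4 CPM in stage 3 against 17.9 to 19.2 CPM.

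Of the 6 chaperones and Kelch proteins, 5 were higher with Myog and 5 with the late sum (medians 2.79 and 1.92). Unc45b, the chaperone that folds muscle myosin, rose from 2.20 CPM in stage 1 to 22.3 in stage 3 and 156 in stage 5, with a ratio of 5.50 (5.16 to 5.89) with Myog. Smyd1, a methyltransferase that works with it in thick filament assembly, was earlier, at 45.8, 125 and 226 CPM, and its late ratio of 0.85 was under 2-fold. The Kelch proteins Klhl41 and Klhl40, which stabilize nebulin and leiomodin 3, rose from 9.10 to 270 CPM and from 5.00 to 94.4 CPM. Cryab, the small heat shock protein alpha-B-crystallin, measured 510, 510, 514 and 518 CPM in stage 1, 750, 752, 745 and 772 CPM in stage 3, and 2811, 2829, 2825 and 2837 CPM in stage 5. Its ratio was 0.58 with Myog at a low late sum and 1.90 (1.86 to 1.95) with the late sum. Hspb7, another small heat shock protein, which binds filamin, measured -0.33 (-0.60 to -0.06) and 1.69 in these comparisons.

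All 4 genes of the last group were higher in both comparisons. The MuRF ligases Trim54, Trim55 and Trim63 attach ubiquitin at the M-band and microtubules, and Trim63 is known for muscle wasting. Trim63 rose from 1.78 CPM in stage 1 to 80.8 CPM in stage 5, with a ratio of 4.79 with Myog, or 3.53 without cells with a Mki67 or Top2a UMI, while Trim54 and Trim55 were already at 35.6 and 19.7 CPM in stage 1 and had ratios of 2.47 and 3.21. Ankrd2, a stretch-response protein, stayed low, at 0.98 CPM in stage 1 and 8.41 CPM in stage 5 (6.91 to 10.2).

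The order of appearance was described by the first stage at 50% or more of a gene's highest stage level. Nebl and Tpm3 were highest in stage 1. A further 7 genes came in stage 2, namely Actn3, Pdlim5, Mybpc1, Tpm1, Cap2, Hspb7 and Smyd1, and 3 in stage 3 (Neb, Myoz1 and Synpo2l). Stage 4 took 10: Ttn, Ldb3, Pdlim7, Flnc, Myom3, Obsl1, Tmod1, Klhl41, Trim54 and Trim55. The other 20 reached the level in stage 5, among them Actn2, Myoz2, Tcap, Csrp3, Myom1, Myom2, Mybph, both leiomodins, Tpm2, Smpx, Cryab and Unc45b. In all, 12 of 42 genes were at 50% before stage 4, against 89.0% of the 6278 genes measured this way, 75.8% of which were already at that level in stage 1. Among genes highest in stage 5, the counts were 8 of 38 for the set and 44.1% for all 1193 such genes.

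The order of some genes depends on the cells and the scaling. Without the stage 1 and 2 cells at a late sum of 1000 CPM or more, a choice made after the data were seen, Pdlim5 and Hspb7 moved to stage 5 and Smyd1 to stage 3, which left 10 genes before stage 4. With scaling by the median gene, 6 were there: Nebl, Tpm3, Mybpc1, Actn3, Myoz1 and Cap2. That scaling also moved Flnc, Obsl1, Klhl41 and Trim54 from stage 4 to stage 5. On UMI totals, Tpm2 and Klhl41 lay close to the cut, at 49.9% and 51.4% of their highest level in stage 4.

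The steps between neighbouring stages are given next. From Myog under 400 to 400 to 1500 CPM, with a late sum under 1000 CPM in both, 22 of 38 genes were already higher (median log2 ratio 1.21), against 2.42% of all genes. From Myog under 400 to 1500 CPM or more, again with a low late sum in both, 29 of 38 were higher (median 1.83), against 4.98% of all genes, and only Tpm3 was lower, at -1.05. Between stages 3 and 4, 16 of 38 were higher (median 0.86; 2.03% of all genes), and between stages 4 and 5, 22 of 41 were (median 1.07; 3.93% of all genes). These steps share cells with one another, and each is given for itself. Mybph measured 2.34 in the first Myog step, and Myot and Myoz2 measured 3.08 and 2.98 in the last step. Myot and Ankrd2 passed the count minimum there through stage 5, at 209 and 106 UMIs per file against 19 and 15.75 in stage 4.

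A small number of cells separated Myog from the late sum: 38 cells had a late sum of at least 5000 CPM with Myog at only 400 to 1500 CPM. Against the 961 cells of stage 5, 2 of 40 genes were higher in them and 0 lower. Of all 9382 genes, 732 (7.80%) were higher and 223 lower, so neither count sets the 40 genes apart from all genes. Myot was at 53.5 CPM in the 38 cells and 16.7 CPM in stage 5, a log2 ratio of 1.68 (1.13 to 2.22) that lay between 1.16 and 1.91 in the 4 files. Ankrd2 was at 22.6 and 8.41 CPM, on 14.5 UMIs per file in the 38 cells. Ttn (-0.14), Neb (-0.02) and Cryab (0.00) were nearly equal, while Pdlim7 (-0.91, -1.13 to -0.69) and Trim55 (-0.84, -1.16 to -0.54) were lower by less than 2-fold. The intervals of these values do not include variation between the 38 cells.

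Spread between cells was measured in stage 5 at 5000 UMIs per cell, as the coefficient of variation (CV, the standard deviation over the mean) after removal of counting variance, for the 38 genes with a mean of at least 0.2 UMIs. The median CV was 0.62, against 0.40 for all 3139 genes measured. The CV exceeded 1 for 3 of 38 genes, against 5.58% of all genes. They were Myoz2 (1.30, 0.99 to 1.46 over the files), Tcap (1.29, 1.26 to 1.31) and Csrp3 (1.26, 1.23 to 1.30), all of the Z-disc. The lowest CVs were those of Synpo2l (0.33), Ldb3 (0.34), Trim54 (0.37) and Tpm2 (0.40). Stage 5 has no upper cut on the late sum, whose median there was 9534 CPM. These CVs, and the shares of cells below, therefore include any change of a gene with the late sum inside stage 5.

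The late Z-disc genes were counted in a part of the stage 5 cells. At 5000 UMIs, Myoz2 was found in 21.3% of 943 cells (exact binomial interval 18.7% to 24.1%), Tcap in 45.3% and Csrp3 in 57.1%. At full depth, a median of 12182 UMIs per file, the shares were 37.1%, 59.6% and 76.2%. In stage 1, with a full depth of 10892 UMIs, the shares at 5000 UMIs were 0.209%, 1.40% and 1.02%. These are not a plain background, because stage 1 includes some cells with a high late sum. Of its 16 Myoz2 UMIs per file, 8 lay in the 3 cells with a late sum of at least 5000 CPM. The 10% of stage 5 cells with the most Myoz2, Tcap or Csrp3 held 45.9%, 42.2% and 41.6% of the summed level of that gene. By contrast Ttn was found in 99.8% of the thinned cells, and its level ran from 2872 CPM at the 10th percentile to 12253 CPM at the 90th.

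**Figure D4:**
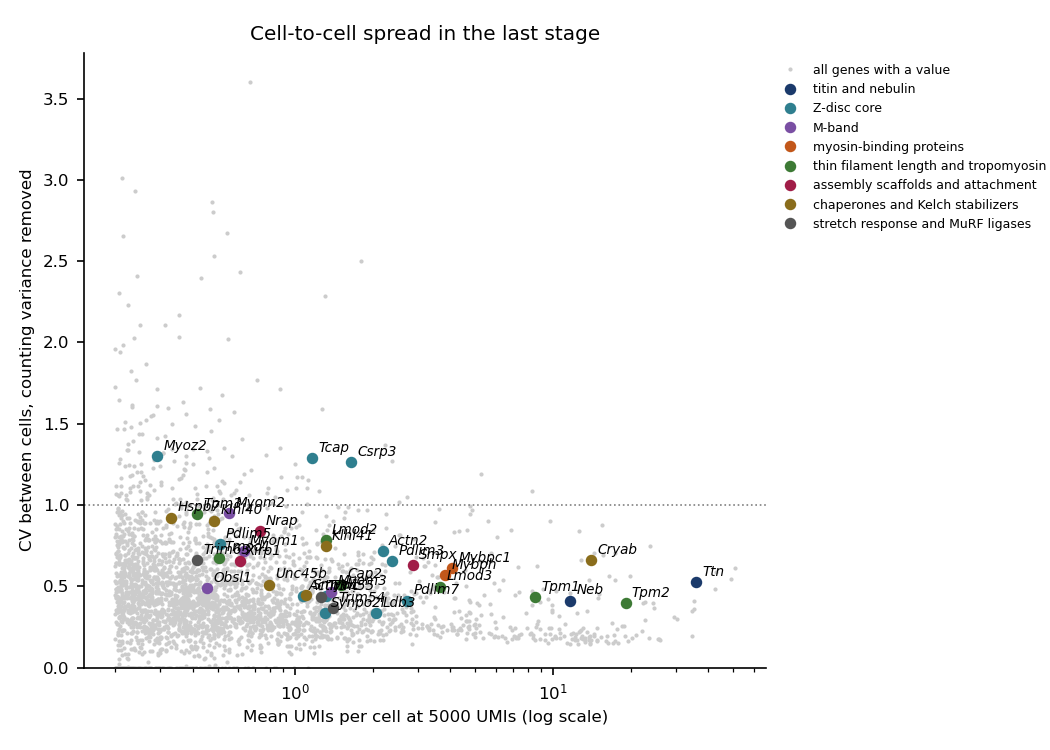
Mean UMIs per cell at 5000 UMIs (horizontal axis, log scale) against the CV between cells of stage 5 after removal of counting variance (vertical axis), for 38 genes of the set (coloured, named) and all other genes measured (grey). Myoz2, Tcap and Csrp3 lie above the dotted line at 1, and Ttn, Tpm2, Cryab and Neb, the most counted of the set, lie between 0.40 and 0.66.

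Among the genes counted well enough in stage 1, several varied less in later stages. The CV of Ttn was 1.55 in stage 1, 1.01 in stage 2, 0.82 in stage 3, 0.70 in stage 4 and 0.53 in stage 5. Neb went from 0.96 to 0.41, Mybpc1 from 1.499 to 0.61 and Actn3 from 1.30 to 0.44 between stages 1 and 5. Tcap was at 2.74 in stage 4 and 1.29 in stage 5, and Csrp3 at 1.82 and 1.26. The CV of Tpm3, whose level fell, went from 0.42 in stage 1 to 0.94 in stage 5, while Cryab was lowest in stage 3 (0.47) and stood at 0.66 in stage 5. The first stages are wide bins of Myog, and their spread includes the range of Myog inside the bin. The spread in stage 5 likewise includes the range of the late sum.

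Pairs of genes were compared over the 943 cells of stage 5, with the 2 genes taken from different files. Over 703 pairs of 38 genes the median correlation was 0.06, and 10 pairs reached 0.3. Counting noise limits these values: the correlation of a gene with itself between files ran from 0.11 for Obsl1 to 0.90 for Ttn, so a low r does not show that genes vary independently. Divided by the self-correlations of its genes, r was 0.83 for Ttn with Neb and 0.66 for Actn2 with Tpm2. Undivided, Ttn with Neb was the highest, at r = 0.65, and Ttn with Mybpc1 reached 0.34. A further set of pairs joined Tpm2 with Cryab (0.44), Smpx (0.40) and Actn2 (0.40). These values are across cells of the same libraries, which share depth and RNA quality, and are descriptions. With Acta1, r was 0.50 for Cryab and 0.40 for Tpm2, and -0.17 for Ttn and -0.12 for Neb. With Myh3, the other gene of the late sum, it was positive for all of these: 0.41 for Cryab, 0.43 for Tpm2, 0.38 for Ttn and 0.29 for Neb.

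Ttn and Neb also moved with Malat1, a long non-coding RNA kept in the nucleus. Over the same 943 cells r with Malat1 was 0.61 for Ttn and 0.48 for Neb, against 0.03 for Cryab and 0.03 for Tpm2. Cells with Malat1 under 2000 CPM made up 17.0%, 15.4%, 17.8%, 9.16% and 6.97% of stages 1 to 5. In these cells Ttn was lower than in the other cells of its stage by a log2 ratio of -1.64, -2.12, -1.37, -1.66 and -1.34, and Neb by -1.37, -1.68, -1.25, -1.47 and -0.93, where the median of all genes was -0.38 to -0.14. Cryab was at 0.37, -0.19, 0.22, 0.22 and 0.42 and Pdlim7 between -0.06 and 0.30.

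The ratios are set beside the length of the gene model. In stage 5 the 14 genes of 50 kb or more had a median ratio of -0.68 between Malat1-poor and other cells and the 26 shorter genes -0.17, and Spearman's rho between length and ratio was -0.62 over 40 genes that share these libraries. In stages 1 to 4 rho was -0.61, -0.30, -0.36 and -0.68. Whether the counts include intronic reads is not given in the sources used here, and the part of Malat1 in the levels of long genes was not tested. Without the Malat1-poor cells the counts were unchanged at 37 and 2 with Myog, 32 and 0 with the late sum, 12 before stage 4 and 3 with a CV above 1.

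**Figure D5:**
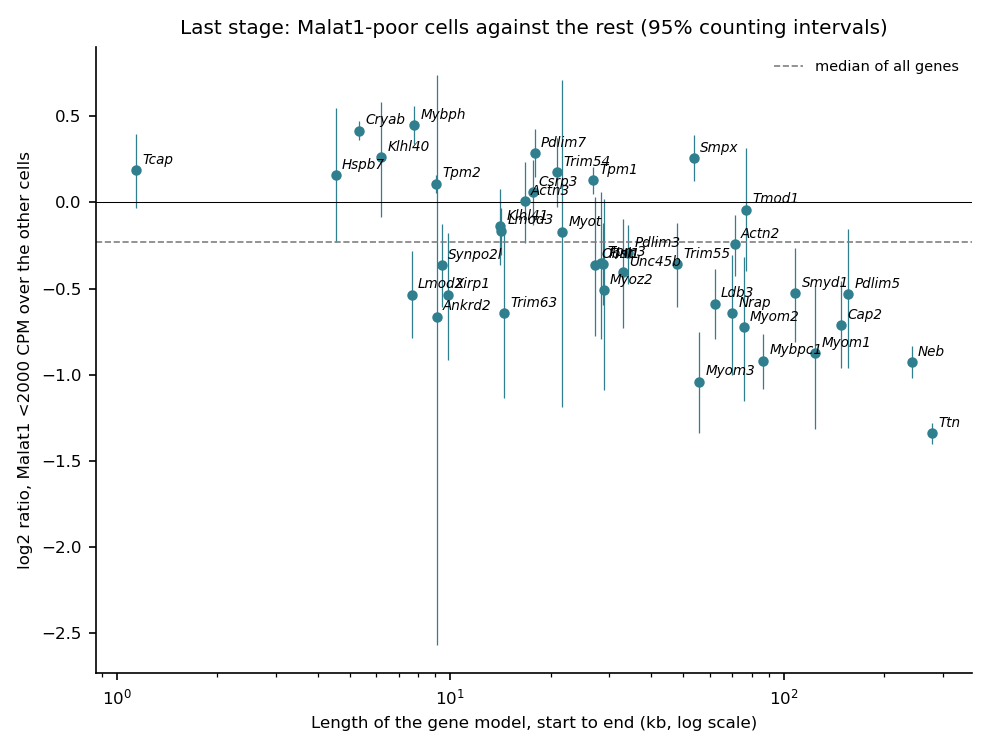
Length of the gene model in kb (horizontal axis, log scale) against the log2 ratio between stage 5 cells with Malat1 under 2000 CPM (67 cells) and the other 894 cells (vertical axis), with 95% counting intervals for 40 genes. Ttn and Neb, at 279 and 242 kb, lie at -1.34 and -0.93, and Cryab, Mybph and Pdlim7 lie above 0.

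Cells with a Mki67 or Top2a UMI held less of most genes of the set in the early stages. In stage 1 the log2 ratio between these cells and the rest was -2.38 for Trim63, -1.08 for Ldb3, -1.03 for Actn3, -0.89 for Neb and -0.63 for Ttn. In stage 5 it was -0.02 for Neb and 0.05 for Ttn. The values above 0 in stage 1 were those of Tpm3 (0.53), Obsl1 (0.34), Xirp1 (0.23), Tpm1 (0.12) and Smyd1 (0.05). Without cells with a Mki67 or Top2a UMI, 1904 of the 5481 kept cells remained. Among them 36 genes were higher with Myog and 30 with the late sum. The shares of cells with such a UMI given above are of thinned cells and do not give the number left out. No share of all genes under this setting is set beside these counts. With Myog, Mybpc1 was then under 2-fold, Myoz1 and Nebl were under the count minimum and Tpm1 was higher, at 1.13. With the late sum, Myom3 and Pdlim7 were under 2-fold, at 0.82 and 0.99. The ratio with Myog moved by over 1.5-fold for Actn3 (1.54), Ldb3 (3.44), Myoz2 (4.77), Myom2 (4.35), Mybpc1 (0.95), Lmod2 (5.29) and Trim63. It did so as well for Nebl (-2.29), under the count minimum. The late ratio moved by as much for Myom1 (1.97), Trim63 (1.97) and Ankrd2 (4.05).

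Other gene lists of the sarcomere and of non-muscle relatives are given for comparison. Of 16 measured thick and thin filament genes, 16 were higher with Myog (median log2 ratio 5.26), and 15 with the late sum, among them Acta1 and Myh3, which set those bins. Of 28 further Z-disc and sarcomere genes, 17 were higher and 1 lower with Myog, including Mypn (myopalladin, 3.28), Capn3 (calpain 3, 5.05) and Xirp2 (5.09), while the cochaperone Bag3 measured 0.03. Fhl2, a LIM protein, was the lower one, at -1.06. Of 16 non-muscle paralogs, 1 was higher, 6 were lower and 9 under 2-fold, with a median of -0.66. Actn1 and Trim32 are in both this list and the preceding one. The higher one was Lmod1, at 0.97 CPM in stage 1 and 6.71 CPM in stage 5. Tpm4 fell by 2.08 on the log2 scale, Tmod3 by 1.67 and Flna by 1.51. Among the regulators, the Mef2 genes encode proteins that bind the MEF2 consensus shown above. Mef2c rose from 23.9 CPM in cells low in Myog to 830 CPM in cells high in Myog. Between stages 1 and 5, Mef2a went from 261 to 1169 CPM and Mef2d from 33.4 to 93.9 CPM. Srf measured 9.46 and 10.0 CPM in cells low and high in Myog, with 13.2 CPM in stage 4 and 6.94 CPM in stage 5. The part of these regulators in the levels of the set was not tested.

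Some genes overlap others on the annotation. Xirp1 overlaps Cx3cr1 and Trim55 overlaps BC002189 on the same strand, and their counts may hold reads of the neighbour. Many more overlap a gene on the other strand, among them Ttn, Neb, Smyd1 (with Krcc1), Myom1 (with Myl12a) and Cryab (with Hspb2). Hspb2 itself was higher with Myog at 2.40. Whether neighbours on the other strand add to any count was not tested.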

How the data were processed

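Single cells of 1 group, labelled as 4 replicates, were measured. The authors deposited unnormalized UMI counts for each gene in each barcode. The file headers name Cell Ranger 7.1.0, the submitters' processing notes name Cell Ranger 3.1.0 together with mm10 and GRCm39, with no role; neither the build nor the treatment of introns is given in the sources used here. Annotation is GENCODE M21 on GRCm38, which held 99.6% of the 32285 gene identifiers, and may differ from the authors'.

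A cell was kept if all files listed it and if, averaged over files, it had 1000 genes or more and less than 10% of UMIs from mitochondrial genes. Cell bins used the mean over files. Levels were summed UMIs per 1000000 (CPM) per file, averaged over the 4 files. Because the files share their cells, no count model across samples was run. Intervals are exact 95% intervals at the mean count of 1 file: Poisson for levels, Clopper-Pearson for shares, conditional binomial for ratios. UMIs are not independent cells, so they cover counting error only. For ratios, a group with 0 counts was set to 3 counts. For spread, cells were thinned to 5000 UMIs, leaving out 284 shallower cells in all stages. Scrublet (scanpy 1.11.5) marked 0 cells as doublets, so its calls were not used, and removal of the 5% highest scores was tried instead. The ratio and CV code was tested on simulated data. Python 3.11.15, scipy 1.17.1 and matplotlib 3.10.9 were used.

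The members, lists, cuts and named-gene rule (per functional group the largest and smallest ratios, earliest and latest onset, highest and lowest CV, and members against their group) were chosen with earlier results of these data known. Other alternatives were another cell filter, scaling, weighting of cells, bins from other files, exclusion of cycling or Malat1-poor cells, no count minimum, another thinning depth, and each file left out.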

Additional observations from a re-analysis of the deposited data

Results flagged for a closer look

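Of 124 values compared over the 4 files (levels over kept cells and the log2 ratios with Myog and with the late sum), 7 had a file that lay apart from the other 3, where chance gives about 5%. With Myog these were Neb in replicate 1 (2.01), Synpo2l in replicate 3 (1.92), Tpm1 in replicate 2 (0.91) and Cryab in replicate 2 (1.81). With the late sum they were Lmod3 in replicate 4 (2.83), Xirp1 in replicate 4 (3.23) and Nrap in replicate 3 (1.98). The value lay inside the counting interval of the mean for 6 of the 7. The exception was Xirp1, where the interval was 2.57 to 3.16. Its level in stage 3 was 13.4 CPM in replicate 4 and 17.9 to 19.2 CPM in the others. The files hold the same cells, so these flags concern the counting of molecules and not biological replicates.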

How the results depend on the processing

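Of 76 counts of genes recomputed under the alternatives, 73 stayed within 1.5 times the reported count. Under scaling by the median gene, the number of genes at 50% of their highest level before stage 4 was 6 in place of 12. Without cells with a Mki67 or Top2a UMI, 1 gene was lower with Myog in place of 2, since Nebl (log2 ratio -2.29 there) was left with too few UMIs. With no count minimum, 3 genes were lower with the late sum in place of 0. Leaving out each file in turn gave 37 to 37 genes higher and 2 to 2 lower with Myog, 32 to 32 and 0 to 0 with the late sum, 12 to 12 before stage 4, and 3 to 3 with a CV above 1. Of 996 ratios of single genes under the alternatives, 820 stayed inside the counting interval of the reported value, 176 moved outside it, and 0 of those at least 2-fold changed direction; 66 of the moves came with median scaling and 55 without the cells with a Mki67 or Top2a UMI. No paired analysis was possible because the design has 1 group. With 1 set of cells, differences between animals, cultures or sorts could not be measured, and genes under 50 UMIs per file (Myoz3, Mybpc2 and Tmod4) could not be called.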
